A study of Mus musculus with 16 samples.

Results

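Npas4, 3 further NPAS genes (Npas1, Npas2 and Npas3) and the partner genes Arnt and Arnt2 were followed through RNA sequencing of mouse hippocampal cultures. The genes were chosen by name and make up 6 of the 55385 genes in the deposited tables. All 6 passed the filter on low counts and were tested with 17222 genes in all. The cultures were prepared from the hippocampus of newborn C57Bl/6N mice. They were infected with an rAAV that carried an shRNA under the U6 promoter and GFP under the chicken β-actin promoter. Control-shRNA is the control sequence of the study, and Dnmt3a1-shRNA lowers the DNA methyltransferase isoform Dnmt3a1. The sample labels do not number the knockdown construct, whereas the study names it Dnmt3a1-shRNA2. Each shRNA was measured at baseline and after 4 h of 50 µM bicuculline, a blocker of GABA-A receptors that raises network firing. These 4 groups hold 4 libraries each, which the study describes as independent neuronal preparations.

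NPAS4 is a transcription factor of the bHLH-PAS family whose gene is switched on by calcium entry in active neurons and which takes part in adjusting excitatory and inhibitory synapses. Members of the family bind DNA as pairs, in which a specific subunit such as NPAS4, NPAS1 or NPAS3 joins a general partner, ARNT or ARNT2. ARNT2 is the partner that predominates in neurons, NPAS1 is known from GABAergic interneurons, NPAS2 is a relative of the circadian factor CLOCK, and NPAS3 is known from neural progenitors, astrocytes and some neurons.

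In the GENCODE M21 annotation of GRCm38, Npas4 (ENSMUSG00000045903.9) spans 4984355 to 4990316 of chromosome 19 (minus strand), with 3 transcripts. Npas1 (ENSMUSG00000001988.9) spans 16455721 to 16477728 of chromosome 7 (minus strand), Npas2 (ENSMUSG00000026077.15) 39193731 to 39363236 of chromosome 1 (plus strand), and Npas3 (ENSMUSG00000021010.8) 53248677 to 54072175 of chromosome 12 (plus strand). Arnt (ENSMUSG00000015522.18) spans 95434388 to 95497240 of chromosome 3 (plus strand), with 11 transcripts. Arnt2 (ENSMUSG00000015709.9) spans 84246278 to 84410176 of chromosome 7 (minus strand), with 13 transcripts. Antisense genes overlap Npas3 and Arnt2 and pseudogenes overlap Arnt and Npas2. Reads of overlapping genes could not be told apart here, since the strand of the counting is not given in the sources used here. No annotated gene overlaps Npas4.

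RefSeq promoter windows on GRCm38.p6 were matched for all 6 genes. They run from 250 bases before to 50 bases after the RefSeq start of a gene, which can differ from the GENCODE start. The windows of Npas4, Npas1 and Npas2 lie wholly inside the GENCODE spans given above, and that of Npas3 wholly before its span. The windows were searched on both strands for TGACGTCA, the cAMP response element that CREB binds, for its shorter form TGACGTC, and for the core letters of bHLH-PAS sites. The 2 stretches of 30 bases that held the element are shown because one belongs to the activity-induced gene and the other to one of its partners. Capitals mark the element on either strand.
Npas4, chr19:4990128-4990157, minus strand: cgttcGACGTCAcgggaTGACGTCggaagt
Arnt, chr3:95434140-95434169, plus strand: ttgcatttcacTGACGTCAatttggttatg
The Npas4 stretch lies from 186 to 157 bases before the RefSeq start and holds the shorter form in both orientations. It falls inside the first exon of a GENCODE transcript that starts further upstream. The Arnt stretch lies from 250 to 221 bases before the start and holds the full palindrome. TGACGTC occurred in 3.21% and TGACGTCA in 1.79% of 32851 RefSeq promoters of this length. The letters TCGTG were found in the windows of Npas1 and Npas2 (16% of all promoters), ACGTG in those of Npas2 and Npas3 (19.6%), and GCGTG in those of Npas4, Npas2 and Arnt (32.4%). CACGTG, which contains ACGTG, was in none of the 6 windows and in 7.15% of all. The 6 windows were rich in CpG, the dinucleotide that DNA methyltransferases modify. They held 18 to 40 CpG, with 18 in Npas3 and 40 in Arnt2, against a median of 7 over all promoters. These matches describe letters and do not show binding or methylation.

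The libraries held 28912697 to 29586355 estimated counts, of which 2.73 to 6.60% were mitochondrial. Dnmt3a, the gene that the knockdown targets, was at 293 to 338 CPM, counts scaled to a common library size, in the 8 Control-shRNA libraries and at 39.4 to 48.1 CPM in the 8 Dnmt3a1-shRNA libraries. Markers of neurons summed to 4610 to 6190 CPM, markers of astrocytes to 211 to 572 CPM and markers of microglia to 1.65 to 4.34 CPM, and no marker of these lists was at 0 in all libraries.

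At baseline Npas4 had the lowest mean of the 6 genes in Control-shRNA. On the per-length scale of TPM, which divides by transcript length, its level was 3.80, 5.72, 11.5 and 7.85 in the 4 Control-shRNA libraries. Arnt2 stood far above the others, at 131, 149, 162 and 151 TPM. Npas2 had a mean of 17.2 ± 3.74 TPM, Npas1 of 14.8 ± 1.07, Npas3 of 12.3 ± 2.33 and Arnt of 9.04 ± 0.395 (SD, n = 4). In this order, Arnt2 did not overlap with Npas2, while all later neighbours overlapped in their libraries. In Dnmt3a1-shRNA at baseline the order below Arnt2 (146 ± 21.1 TPM) was Npas1, Npas2, Npas4, Npas3 and Arnt, with means from 12.8 to 8.51 TPM, and again each neighbour overlapped with the next.

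**Figure D1:**
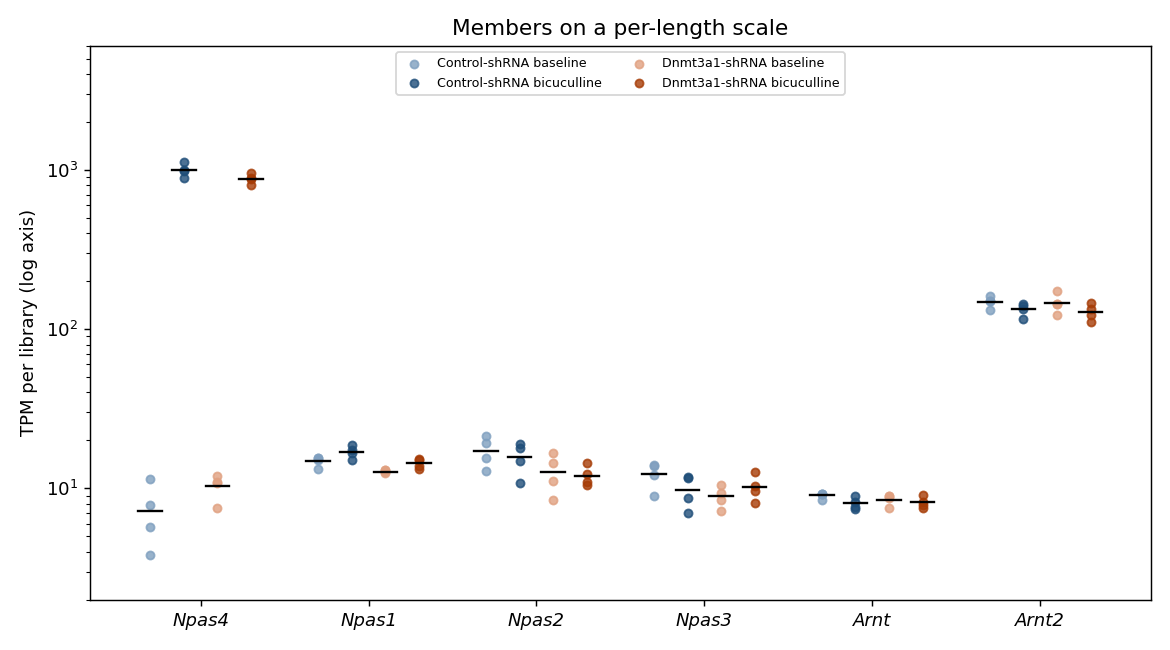
TPM of the 6 genes in each of the 16 libraries on a log axis, with 1 point per library and a black line at the mean of each group of 4. Arnt2 stands above the other genes at baseline, and Npas4 moves from the lowest mean in Control-shRNA baseline to the highest with bicuculline in both shRNA conditions.

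The first question of the design is which genes respond to synaptic activity. With bicuculline Npas4 reached 1123, 990, 999 and 888 TPM in the Control-shRNA libraries and 953, 877, 800 and 893 TPM in the Dnmt3a1-shRNA libraries. Every bicuculline library stood far above every baseline library, and Npas4 moved from rank 8384 to 11693 by TPM among all genes at baseline to rank 82 to 149. Its share of all counts went from 0.000638 to 0.00182% at baseline to 0.125 to 0.186%.

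On the scale of TMM-scaled CPM, which serves for comparisons of 1 gene between libraries, Npas4 rose from 10.4 ± 4.19 to 1662 ± 234 in Control-shRNA (SD, n = 4). The log2 fold change was 7.32 (SE 0.26, 95% interval 6.77 to 7.87, adjusted p = 1.07e-12, quasi-likelihood test of edgeR, Benjamini-Hochberg adjusted). In Dnmt3a1-shRNA it rose from 15.9 ± 3.27 to 1577 ± 221 CPM, with a log2 fold change of 6.63 (SE 0.25, 95% interval 6.10 to 7.17, adjusted p = 2.01e-12). Genes with an adjusted p under 0.05 were called where the log2 fold change exceeded 0.5 in either direction. By this rule 1 of the 6 genes, Npas4, was called in each bicuculline comparison, where 21.9% of all tested genes were called in Control-shRNA and 25.8% in Dnmt3a1-shRNA. By the size of the rise Npas4 was 8th and 10th among 13880 genes of at least 1 CPM.

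**Figure D2:**
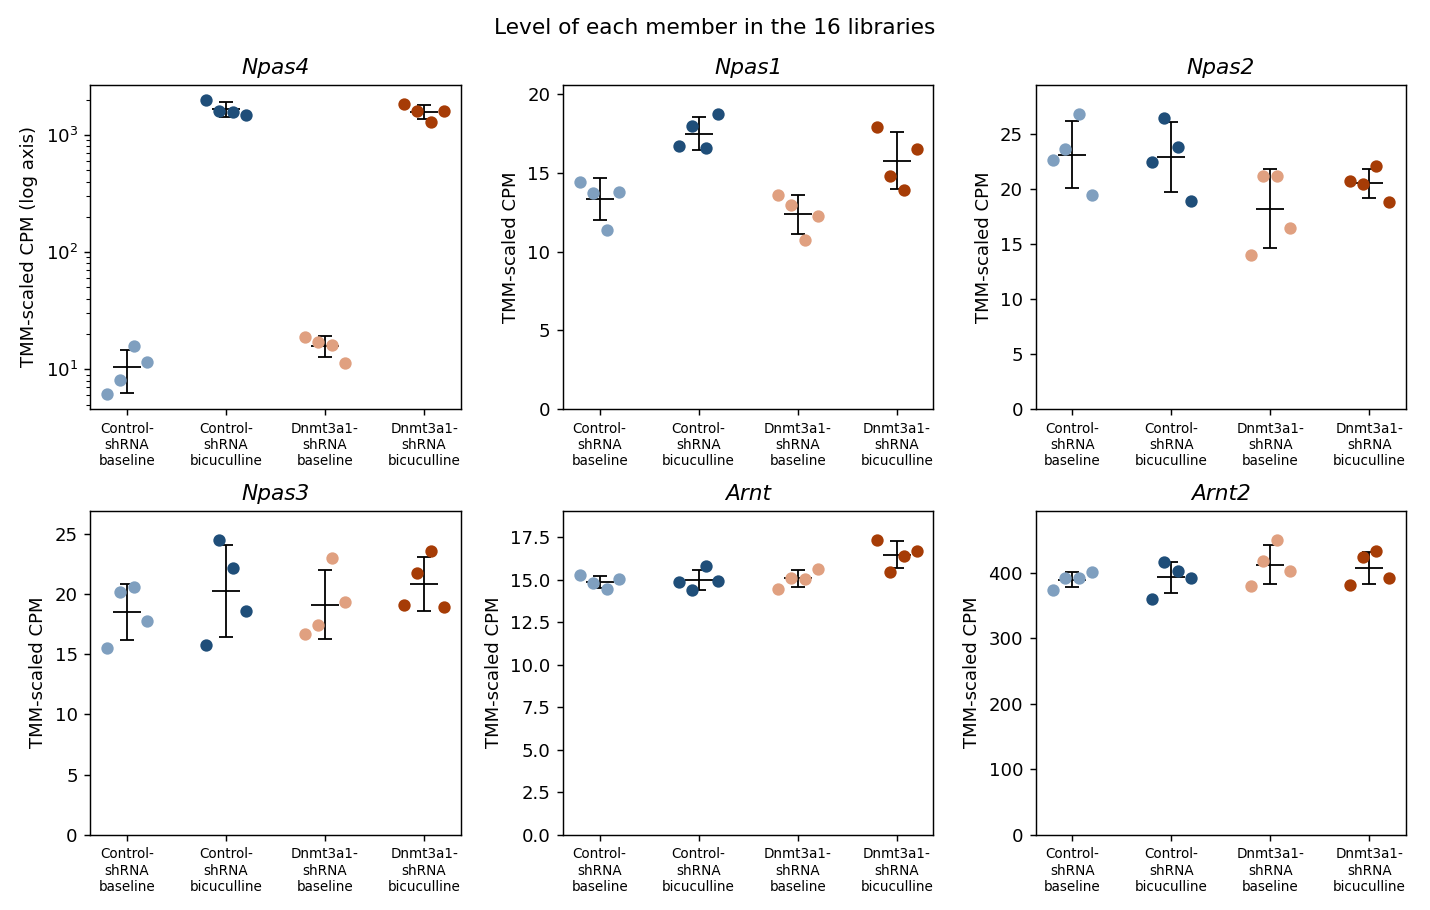
TMM-scaled CPM of each gene by group, with 1 point per library, a horizontal line at the mean and bars of 1 SD (n = 4). The axis of Npas4 is logarithmic and the other axes start at 0. Npas4 separates baseline from bicuculline completely, Npas1 is higher with bicuculline in both shRNA conditions, and Npas2, Npas3, Arnt and Arnt2 overlap between baseline and bicuculline.

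Npas1 also did not overlap between baseline and bicuculline. It was at 14.5, 13.7, 11.4 and 13.8 CPM in Control-shRNA baseline and at 16.8, 18.0, 16.6 and 18.7 CPM with bicuculline. In Dnmt3a1-shRNA it was at 13.6, 13.0, 10.7 and 12.3 CPM at baseline and at 17.9, 14.8, 13.9 and 16.5 CPM with bicuculline. The lowest bicuculline library lay above the highest baseline library in both, narrowly so in Dnmt3a1-shRNA. Libraries did not overlap for 39.7% of all tested genes in Control-shRNA and for 40.4% in Dnmt3a1-shRNA. The log2 fold change was 0.39 (SE 0.10, adjusted p = 0.0033) and 0.35 (SE 0.10, adjusted p = 0.0070) by edgeR, below the fold threshold of 0.5, so Npas1 was not called. At an adjusted p under 0.05 and any fold, 41.4% and 46% of all tested genes passed. On TPM with limma, a scale on which the middle of all genes lay below 0, the difference was 0.19 (adjusted p = 0.0885) and 0.16 (adjusted p = 0.159).

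Markers of GABAergic neurons, the cells in which NPAS1 is known, were also higher with bicuculline, as were those of some other cell types. The 6 markers summed to 1350 to 1710 CPM in Control-shRNA baseline and 1960 to 2450 CPM with bicuculline, and to 1080 to 1390 and 1680 to 2190 CPM in Dnmt3a1-shRNA. Of the 6, 3 were called higher with bicuculline in each comparison, where 10.8% and 12.6% of all tested genes were called higher, none was called lower, and no marker was at 0 in all libraries. The median log2 fold change of the 6 was 0.49 in Control-shRNA and 0.53 in Dnmt3a1-shRNA. It was 0.55 and 0.23 for fibroblast and vessel markers and 0.31 and 0.31 for astrocyte markers. General neuron markers had 0.18 and 0.19, oligodendrocyte lineage markers 0.15 and 0.10, and excitatory neuron markers 0.02 and -0.03. For markers of microglia and of proliferation it lay below 0 in both. The part of GABAergic markers in the difference of Npas1 was not tested. In such bulk cultures more cells of a type and more RNA per cell cannot be told apart.

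The partners and the other NPAS genes gave small values with bicuculline. Arnt2, the neuronal partner, was at 373, 392, 391 and 401 CPM in Control-shRNA baseline and at 360, 417, 402 and 392 CPM with bicuculline. The groups overlapped, and the log2 fold change was 0.01 (95% interval -0.12 to 0.15) in Control-shRNA and -0.02 (-0.15 to 0.12) in Dnmt3a1-shRNA. Arnt, the more widely used partner, was at 15.3, 14.8, 14.5 and 15.1 CPM at baseline and at 14.9, 14.4, 15.8 and 14.9 CPM with bicuculline in Control-shRNA. These groups overlapped as well, with a log2 fold change of 0.01 (-0.12 to 0.14), and the value in Dnmt3a1-shRNA was 0.13 (-0.00 to 0.25, adjusted p = 0.0991 by edgeR). The intervals of both partners lie inside the fold threshold of 0.5 in either direction.

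Npas2 was at 19.4 to 26.8 CPM in Control-shRNA baseline and at 18.9 to 26.5 CPM with bicuculline, a log2 fold change of -0.01 (-0.29 to 0.26). In Dnmt3a1-shRNA its log2 fold change was 0.17 (-0.11 to 0.45). Npas3 was at 15.6 to 20.6 CPM and 15.8 to 24.5 CPM in Control-shRNA, a log2 fold change of 0.13 (-0.15 to 0.41), and gave 0.12 (-0.16 to 0.41) in Dnmt3a1-shRNA. Neither gene was called, and a miss of the threshold does not show that their levels were equal.

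**Figure D3:**
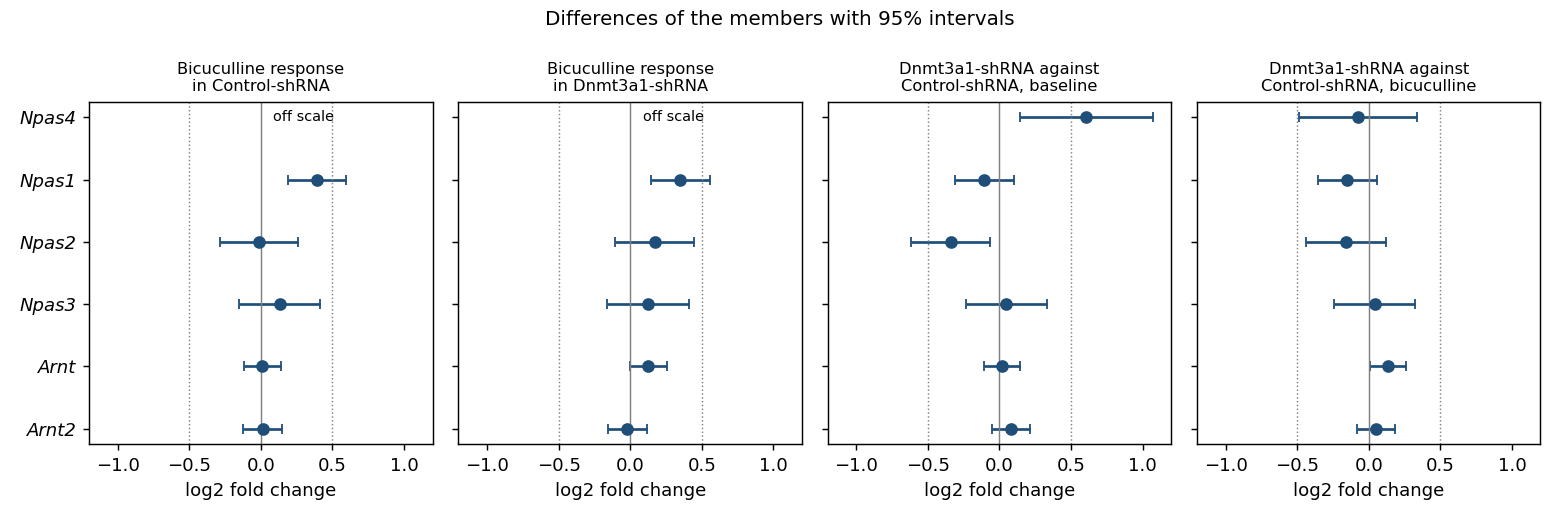
Log2 fold change of each gene with its 95% interval in the 4 comparisons of 4 against 4 libraries, with dotted lines at the fold threshold of 0.5 in both directions. Npas4 lies off the scale in the bicuculline responses, at 7.32 and 6.63, and Arnt and Arnt2 stay close to 0 in all comparisons.

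The balance between Npas4 and its partners was compared as ratios of TPM within a library, which do not depend on the scaling between libraries. Npas4 per Arnt2 was 0.0289, 0.0383, 0.0709 and 0.0520 in Control-shRNA baseline and 9.73, 6.88, 7.10 and 6.68 with bicuculline. In Dnmt3a1-shRNA the ratio was 0.0901, 0.0756, 0.0690 and 0.0519 at baseline and 8.57, 6.58, 5.48 and 7.24 with bicuculline. Npas4 transcripts were thus fewer than Arnt2 transcripts in all 8 baseline libraries and more numerous in all 8 bicuculline libraries. With bicuculline, Arnt and Arnt2 together amounted to 10.9 to 19.4% of the TPM of Npas4.

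The ratio of the partners to each other differed less. Arnt2 per Arnt was 15.6, 16.2, 17.6 and 16.3 in Control-shRNA baseline, 15.6, 17.5, 15.7 and 17.4 in Control-shRNA with bicuculline, 16.3, 16.1, 19.3 and 16.7 in Dnmt3a1-shRNA baseline, and 14.8, 16.9, 16.1 and 15.0 in Dnmt3a1-shRNA with bicuculline. All groups overlapped. The log2 ratio differed by 0.01 and -0.13 with bicuculline in Control-shRNA and Dnmt3a1-shRNA, and by 0.06 and -0.08 between the shRNAs at baseline and with bicuculline. Two-sided exact permutation tests gave p = 0.914, 0.171, 0.571 and 0.229, with 0.914, 0.457, 0.762 and 0.457 after adjustment over the 4 tests. The smallest p that 4 against 4 libraries allow is 0.0286.

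**Figure D4:**
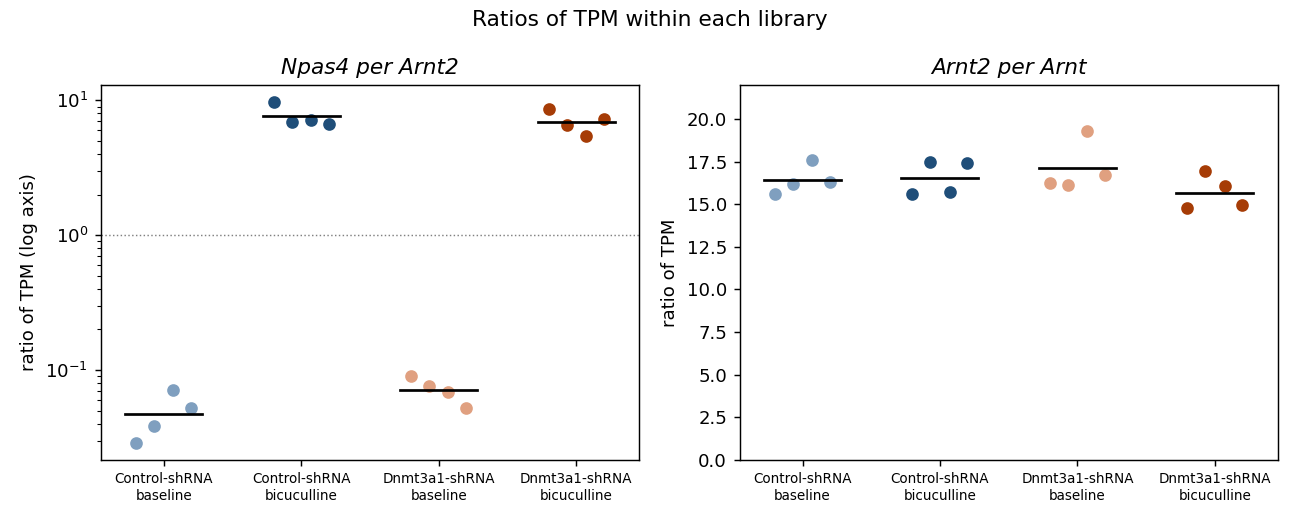
Ratio of TPM of Npas4 to Arnt2 (left, log axis, dotted line at 1) and of Arnt2 to Arnt (right, axis from 0), with 1 point per library and a line at the group mean. Npas4 per Arnt2 lies below 0.1 in every baseline library and above 5 in every bicuculline library, whereas Arnt2 per Arnt lies between 14.8 and 19.3 throughout.

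The second question is which genes depend on Dnmt3a1. None of the 6 genes was called between the shRNAs at baseline, where 5.83% of all tested genes were called (1.76% higher and 4.07% lower), or with bicuculline, where 5.89% were called (2% higher and 3.9% lower). At baseline Npas4 was at 6.12, 8.15, 15.7 and 11.6 CPM in Control-shRNA and at 18.9, 17.2, 16.1 and 11.3 CPM in Dnmt3a1-shRNA. The groups overlapped, as they did for all 6 genes in both shRNA comparisons, whereas libraries did not overlap for 19.9% of all tested genes at baseline and 20.9% with bicuculline. Within the same replicate number the Dnmt3a1-shRNA library was higher in 3 of 4 numbers. The log2 fold change was 0.61 (SE 0.22, 95% interval 0.14 to 1.07) with an adjusted p of 0.0712 by edgeR. Over the alternative settings the adjusted p ran from 0.00919 to 0.196. It passed the threshold without the filter on low counts (0.0171), without Control-shRNA baseline replicate 3 (log2 fold change 0.88, adjusted p = 0.00919) and without Dnmt3a1-shRNA baseline replicate 4 (0.74, adjusted p = 0.0388). With bicuculline the difference was -0.08 (95% interval -0.49 to 0.34, adjusted p = 0.831).

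The fold of Npas4 within the same replicate number was 327, 198, 99.5 and 126 in Control-shRNA. The replicate number with the highest fold had the lowest baseline level in Control-shRNA, which is the divisor. Its bicuculline library was also the highest of its group, at 2002 CPM. The part of either level in the fold was not tested. Folds within a number are not given for Dnmt3a1-shRNA, where the numbers were not taken as pairs. The difference of the 2 responses, tested as an interaction, was -0.68 on the log2 scale (SE 0.29, 95% interval -1.30 to -0.06), with an unadjusted p of 0.0332 and an adjusted p of 0.963 by edgeR. For the interaction 0% of all tested genes passed an adjusted p of 0.05 with edgeR, 852 had an unadjusted p under 0.05, and DESeq2 called 18 genes. The 2 responses of Npas4 were therefore not shown to differ.

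Npas2 was at 22.6, 23.7, 26.8 and 19.4 CPM in Control-shRNA baseline and at 14.0, 21.2, 21.2 and 16.5 CPM in Dnmt3a1-shRNA baseline. It was lower in all 4 numbers, while the groups overlapped. The log2 fold change was -0.34 (95% interval -0.62 to -0.07, adjusted p = 0.0868 by edgeR). With the replicate number as a block it was -0.35 (adjusted p = 0.0062), which passes the p threshold but not the fold threshold. With bicuculline the value was -0.16 (-0.44 to 0.12). Clock, the relative of Npas2, had a log2 fold change of -0.37 at baseline (SE 0.11, adjusted p = 0.0262 by edgeR), also below the fold threshold, and of -0.26 (adjusted p = 0.111) with bicuculline.

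Npas1 gave -0.11 (-0.31 to 0.10) at baseline and -0.15 (-0.36 to 0.06) with bicuculline between the shRNAs. Arnt gave 0.02 (-0.11 to 0.15) and 0.14 (0.01 to 0.26, adjusted p = 0.137 by edgeR). Arnt2 gave 0.08 (-0.05 to 0.22) and 0.05 (-0.08 to 0.19). Npas3 gave 0.05 (-0.24 to 0.33) and 0.04 (-0.24 to 0.33). Markers of astrocytes were at 211 to 378 and 285 to 509 CPM in sum at baseline in Control-shRNA and Dnmt3a1-shRNA. Of the 5, 1 was called higher and none lower, where 1.76% of all tested genes were called higher and 4.07% lower. The called marker was at a low level, with means of 0.75 and 1.33 CPM. The part of these markers in the values of Npas3 was not tested.

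For Npas3 counts and TPM gave different signs in 2 of the 4 comparisons. The count divided by the TPM follows the mean length of the transcripts to which reads of a gene were assigned, and for Npas3 this length ran from 65.3 to 147% of its own mean over the 16 libraries. It ran from 89.7 to 113% for Npas2 and stayed within 93.6 to 105% for the other 4 genes. In Control-shRNA the relative length of Npas3 was 93.2, 83.5, 91.3 and 82.8% at baseline and 104, 106, 98.4 and 109% with bicuculline. These groups did not overlap and differed by 0.25 on the log2 scale (two-sided exact permutation test, p = 0.0286, 0.343 after adjustment over 24 tests). In Dnmt3a1-shRNA it was 112, 86.0, 144 and 122% at baseline and 65.3, 104, 147 and 85.8% with bicuculline, and the groups overlapped. On log2(TPM + 1) with limma the bicuculline response of Npas3 in Control-shRNA was -0.31 (adjusted p = 0.178), against 0.13 by counts, and the difference between the shRNAs at baseline was -0.41 (adjusted p = 0.149), against 0.05 by counts. In the other 2 comparisons the mean TPM was higher where the counts were, at 8.92 ± 1.39 in Dnmt3a1-shRNA baseline and 10.2 ± 1.88 in Dnmt3a1-shRNA with bicuculline, and at 9.78 ± 2.35 in Control-shRNA with bicuculline (SD, n = 4).

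Genes reported elsewhere as NPAS4 targets were followed as a list of 8. With bicuculline 7 of 8 were called higher and none lower in Control-shRNA, with a median log2 fold change of 2.52 against 0.006 over all tested genes, and 7 of 8 in Dnmt3a1-shRNA, with a median of 2.74 against -0.008. Of all tested genes 10.8% and 12.6% were called higher. The largest rises were those of Csrnp1, a nuclear factor (5.14 in Control-shRNA and 4.88 in Dnmt3a1-shRNA), Nptx2, a pentraxin that gathers AMPA receptors (3.79 and 4.20), and Pcsk1, a prohormone convertase (2.93 and 3.48). Bdnf, a neurotrophin, rose by 2.53 and 2.91. Syt10, a synaptotagmin, gave 0.13 (adjusted p = 0.641) and -0.05 (adjusted p = 0.889) by edgeR. This list, like those below, was chosen with earlier results of these data known. Its counts therefore do not test the action of NPAS4. Whether NPAS4 binds these genes in the cultures was not measured.

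Between the shRNAs 1 of the 8 was called lower at each condition and none higher, where 4.07% of all tested genes were called lower at baseline and 3.9% with bicuculline. Bdnf was at 77.8, 53.5, 79.6 and 102 CPM in Control-shRNA baseline and at 54.9, 37.4, 53.2 and 41.8 CPM in Dnmt3a1-shRNA baseline. The groups overlapped by 1 library on each side, and Bdnf fell by 0.74 on the log2 scale (SE 0.18, adjusted p = 0.0090, edgeR). With bicuculline its value was -0.36 (adjusted p = 0.17). Syt10, at low levels of 1.90, 1.53, 1.78 and 1.47 CPM in Control-shRNA and 0.792, 1.15, 0.820 and 1.11 CPM in Dnmt3a1-shRNA with bicuculline, did not overlap and fell by 0.79 (SE 0.21, adjusted p = 0.0164, edgeR). At baseline its value was -0.61 (adjusted p = 0.0572). The median of the 8 genes was -0.31 at baseline and -0.03 with bicuculline, against 0.007 and -0.006 over all tested genes.

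**Figure D5:**
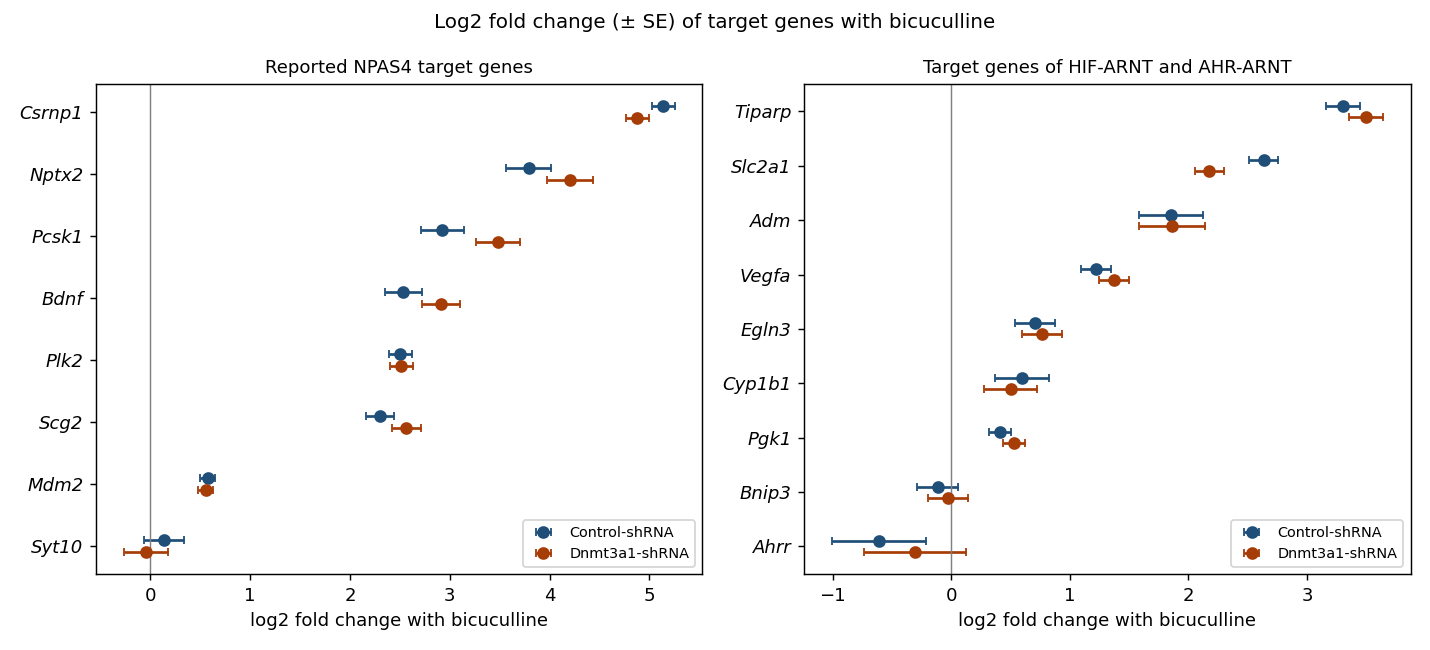
Log2 fold change with bicuculline, with its SE, of the 8 reported NPAS4 targets (left) and of 9 target genes of HIF-ARNT and AHR-ARNT pairs (right), in Control-shRNA (blue) and Dnmt3a1-shRNA (orange). All NPAS4 targets but Syt10 lie above 0.5 in both. On the right, Tiparp and Slc2a1 lie above 2 in both, and the lowest gene lies below 0 in both.

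Other members of the bHLH-PAS family include further specific subunits, circadian factors and coactivators. Of 13 listed, 12 were tested, and 3 were called higher with bicuculline in Control-shRNA and 4 higher and 1 lower in Dnmt3a1-shRNA, with medians of 0.25 and -0.006. Among all tested genes 10.8% were called higher and 11.1% lower in Control-shRNA, and 12.6% higher and 13.2% lower in Dnmt3a1-shRNA. Ahr, the dioxin receptor, rose by 0.58 and 0.74, and Arntl, the circadian partner BMAL1, rose by 0.73 and 0.81. Sim1, a factor of the hypothalamus, was called on very few counts, with 1, 0, 1 and 2 in Control-shRNA baseline and 23, 5, 4 and 10 with bicuculline, and with 1 count in all at Dnmt3a1-shRNA baseline and 13, 6, 9 and 15 with bicuculline. Ncoa3, a coactivator, rose by 0.53 in Dnmt3a1-shRNA and had 0.50 in Control-shRNA, just under the threshold, and Ncoa1, also a coactivator, fell by 0.52 in Dnmt3a1-shRNA and had -0.38 in Control-shRNA. Hif1a, the oxygen-regulated subunit that pairs with ARNT, gave 0.04 and -0.08. None of the 12 was called between the shRNAs, and Arntl gave 0.44 (adjusted p = 0.129) and 0.53 (adjusted p = 0.0593) by edgeR.

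Targets of the pairs that ARNT forms with hypoxia-inducible factors and with AHR were also followed. With bicuculline 6 of 9 were called higher in each shRNA, with medians of 0.71 and 0.77, where 10.8% and 12.6% of all tested genes were called higher and the medians of all were 0.006 and -0.008. The largest rises were those of Tiparp, an ADP-ribosyltransferase (3.30 and 3.50), Slc2a1, a glucose transporter (2.63 and 2.18), and Adm, the peptide adrenomedullin (1.85 and 1.86). The lowest values of this list with bicuculline were -0.61 and -0.31, and none was called lower. Whether pairs with ARNT bind these genes in the cultures was not measured. None of the 9 was called between the shRNAs. Among 18 subunits of NuA4/TIP60, an acetyltransferase complex reported to act with NPAS4, 1 was called higher and 2 lower in Control-shRNA (median -0.25). In Dnmt3a1-shRNA 1 was called higher and 3 lower (median -0.31). Both medians lay below those of all tested genes, 0.006 and -0.008. Of all tested genes 10.8% were called higher and 11.1% lower in Control-shRNA, and 12.6% higher and 13.2% lower in Dnmt3a1-shRNA. The counts of subunits leave out changes under the fold threshold, most of which were decreases. Epc1 rose by 0.77 and 0.90, and Brd8 fell by 0.90 and 0.93. Mbtd1 fell by 0.52 and 0.51, and Mrgbp fell by 0.60 in Dnmt3a1-shRNA, with -0.46 in Control-shRNA. No subunit was called between the shRNAs.

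Genes with the most similar pattern were ranked by Pearson's r of log2(CPM + 0.5) among 13879 genes, as a description over libraries that share conditions and replicate numbers. Over the 16 libraries Npas4 was nearest to Fos (r = 0.998), Csrnp1 (0.996) and Ccn1 (0.996), which follows the step between baseline and bicuculline. Over the 8 bicuculline libraries alone the nearest genes were Gm15559 (0.990), Nrf1 (0.966) and D330045A20Rik (0.952). As the highest of 13879 values over so few libraries, these do not show shared regulation. Gm15559 and D330045A20Rik were at low means of 2.8 and 1.2 CPM. Npas1 was nearest to Sp8 (0.923), Parva (0.920) and Cdca8 (0.918), and Npas3 to Adcy1 (0.943), Sox6 (0.924) and Slc37a2 (0.912). Arnt2 was nearest to Aldh1l2 (0.915), 1810010H24Rik (0.889) and H2afv (0.886), Npas2 to Josd2 (0.873), Hddc3 (0.856) and Cyb5r1 (0.853), and Arnt to Spp1 (0.85), Bag2 (0.83) and Fam169a (0.82).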

How the data were processed

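RNA of 16 libraries was sequenced as 100 bp paired-end reads. The authors trimmed the reads with Trim Galore, quantified them with kallisto on GRCm38.p6, and deposited an estimated count per gene without any scaling. The authors' second file per library gives TPM, scaled for transcript length and library total, so that a few strongly induced genes lower the TPM of all others. Gene symbols and positions were taken from GENCODE M21 (55144 of 55385 identifiers matched without version). Groups and replicate numbers were taken from the sample labels.

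The rounded estimated counts entered edgeR 4.0.16 under R 4.3.3 (TMM scaling, filterByExpr, 1 quasi-likelihood fit of the 4 groups). Benjamini-Hochberg adjustment of p-values ran over 17222 genes. The bicuculline comparisons and the knockdown comparisons share groups of libraries. CPM are scaled by TMM. The study itself used voom with limma, which was run as an alternative (limma 3.58.1), as was DESeq2 1.42.0. The other alternatives were the replicate block, other scaling, other filters, other fold thresholds, TPM with limma (pseudocounts 1 and 0.1), a fit of only the 2 groups compared, and each library left out in turn. On simulated data, drawn for the bicuculline response in Control-shRNA over 16943 genes, 172 of 200 changed genes were recovered and 4 unchanged genes were called. The changes set there were log2 values of 1 and 2 in either direction, drawn with the spread that the fit itself estimated. Far fewer genes were changed than were called in the data. These counts check the code and do not give error rates for the data or for smaller changes. Same-numbered libraries deviated together from their group means, with Pearson's r over genes of 0.142 to 0.221 for the bicuculline comparison in Control-shRNA and of 0.204 to 0.355 for the knockdown comparison at baseline. In each of the other 2 comparisons 1 number stayed below 0.1 (lowest 0.0631 and 0.0667). Directions and folds within a number are therefore given only for the first pair of comparisons. The main tests paired no libraries, and the replicate block was 1 fit over all 16 libraries, used for every comparison. No 2 libraries of a group were alike within sampling noise. Whether same-numbered libraries share a preparation is not given in the sources used here.

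Named genes were the 6 members, Dnmt3a, the called genes of largest change of each list of related genes (at most 3 in each direction in a comparison, cell type markers being given by counts, sums and medians only), Arntl, Clock and Hif1a, and the 3 genes most similar to each member. Mdm2, Plk2, Scg2 and the other genes of a list are given by counts. Ncoa3 and Ncoa1 in Control-shRNA and Mrgbp in Control-shRNA were named after their values were seen. The members and lists were chosen with earlier results of these data known. Promoter sequences are from RefSeq on GRCm38.p6, and protein sequences were not used here. An item that the rule for named genes covers is not reported here.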

Additional observations from a re-analysis of the deposited data

How the results depend on the processing

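The call of Npas4 with bicuculline held in both shRNA conditions under each setting tried, with log2 fold changes of 7.01 to 7.59 and 6.30 to 6.73. Without a fold threshold 2 members passed in each bicuculline response (Npas1 in addition), and 7131, 7919, 2809 and 3046 genes were called in the bicuculline response in Control-shRNA and Dnmt3a1-shRNA and between the shRNAs at baseline and with bicuculline. At a threshold of 1 these were 1378, 1681, 175 and 185. Between the shRNAs at baseline 1 member, Npas4, was called without the filter on low counts, and 0 to 1 with each library left out. For the interaction DESeq2 called 18 genes, edgeR 3 without the filter and 3 with the replicate block, and 0 to 1 with each library left out (1 without Control-shRNA bicuculline replicate 1). The replicate block changed no other call of a member. For Npas4 it gave 0.59 (adjusted p = 0.0519) between the shRNAs at baseline.

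None of the values that changed direction was called in any setting. Scaling by library sizes only moved the median of all genes to -0.15 and -0.16 in the bicuculline responses and to -0.07 and -0.08 between the shRNAs, and the share of called genes that were lower from 50.8 to 69.0%, 51.1 to 67.2%, 69.8 to 85.8% and 66.1 to 80.8%. With it, the bicuculline response in Control-shRNA was -0.028 for Npas3, -0.148 for Arnt and -0.146 for Arnt2, that in Dnmt3a1-shRNA was -0.026 for Npas3 and -0.024 for Arnt, the difference between the shRNAs was -0.031 for Npas3 and -0.060 for Arnt at baseline and -0.029 for Npas3 and -0.018 for Arnt2 with bicuculline, and the interaction of Npas3 was 0.002. On TPM with limma (pseudocounts 0.1 and 1) the response in Control-shRNA was -0.336 and -0.309 for Npas3, -0.167 and -0.151 for Arnt and -0.157 and -0.156 for Arnt2, that in Dnmt3a1-shRNA was -0.039 and -0.038 for Npas2 and -0.053 and -0.048 for Arnt, the difference between the shRNAs was -0.448 and -0.413 for Npas3, -0.089 and -0.080 for Arnt and -0.032 and -0.032 for Arnt2 at baseline and -0.054 and -0.054 for Arnt2 with bicuculline, and the interaction of Npas3 was 0.516 and 0.474. DESeq2 and its size factors in edgeR gave 0.002 and 0.002 for Npas2 in the response in Control-shRNA, 0.006 and 0.006 for Arnt2 in that in Dnmt3a1-shRNA, and 0.004 and 0.003 for the interaction of Npas3, which was 0.006 with at least 10 counts in every library and 0.01 with voom. The cause was not tested.

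With each library left out in turn, values that changed direction ran from -0.090 to 0.065 for Npas2, -0.016 to 0.028 for Arnt and -0.019 to 0.048 for Arnt2 in the response in Control-shRNA, and from -0.057 to 0.025 for Arnt2 in that in Dnmt3a1-shRNA. Between the shRNAs they ran from -0.055 to 0.109 for Npas3 and -0.00 to 0.037 for Arnt at baseline, and from -0.157 to 0.023 for Npas4 and -0.065 to 0.145 for Npas3 with bicuculline. For the interaction they ran from -0.110 to 0.026 for Npas1, -0.111 to 0.097 for Npas3 and -0.072 to 0.014 for Arnt2. The lowest counts behind values of Npas4 were those at baseline, 186 to 537 per library.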
